A study of Mus musculus with 9 samples.

Results

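Mouse cortical neurons that had spent 7 hours in 0.2% oxygen with 10 nM triiodothyronine (T3), the active thyroid hormone, were compared with neurons left in normal oxygen, to describe where hormone-treated hypoxic neurons stood across pathways. The comparison took the 3 libraries of hypoxia with T3 and the 3 libraries of normoxia, chosen by their column names, which are 6 of the 9 libraries of the series. The other 3 libraries came from neurons in the same low oxygen without added hormone and are used here to place the hormone-treated neurons. All 9 libraries were made from polyadenylated RNA of primary cells that the labels call cortical neuronal cells, from the brain of C57BL/6 mice of genotype Wt, after 6 days in culture. All cultures grew in Neurobasal medium with the B27 supplement, whose usual formula contains T3. The labels give the oxygen level of both hypoxia groups but not that of normoxia, and they give no age, sex or pooling of the animals. Low oxygen and added hormone both separate the groups compared, and their shares cannot be told apart within this comparison. Normoxic neurons with added T3 were not analysed here. Libraries are named by group and column number: normoxia 1, 2 and 3, hypoxia 7, 8 and 9, and T3 11, 12 and 13.

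Cells sense oxygen through prolyl hydroxylases, which mark the alpha subunits of the hypoxia-inducible factors (HIF) for destruction while oxygen is present. In low oxygen the subunits accumulate, pair with ARNT proteins and switch on genes of glucose uptake, glycolysis, vessel growth and oxygen sensing itself. T3 enters neurons through membrane transporters and binds the nuclear receptors THRA and THRB, which sit on DNA with corepressors and exchange them for coactivators when hormone binds. In the developing cortex T3 is known for its part in neuronal maturation, migration and the growth of axons and dendrites.

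Each value below is a TMM-normalised CPM, a read count scaled to the size of its library, as deposited by the authors. Depth recovered from the values ran from 17182338 to 33937842 reads per library, so 1 read was worth 0.0302 to 0.0565 CPM. A gene was tested if it stood above 1 CPM in at least 3 libraries, which 12923 genes did. A change is the difference of group means of log2(CPM + 1), which understates the change of low genes, and "higher", "lower", "rose" and "fell" below mean an adjusted p under 0.05 by limma. No label tells if a group's libraries are separate cultures, so the p-values cover only the spread among them, and that spread may be technical. In bulk RNA, fewer cells of a type and less RNA per cell cannot be told apart. In 35 rows some values were not whole numbers of reads, and genes in those rows are marked below as partly off the read step. The 45S ribosomal RNA precursor Rn45s, with 1 value off the read step in hypoxia 7, was set as a check of RNA quality. It took 3.25% to 4.21% of the column sum in normoxia and 1.04% to 2.65% with T3. Lars2, set as another such check, took 0.427% to 0.516% in normoxia and 0.091% to 0.243% with T3. The part of Rn45s and Lars2 in the results was not tested.

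Markers of other cells varied widely from library to library within each group. The 10 astrocyte markers summed to 186 to 299 CPM in normoxia, 204 to 395 CPM in hypoxia and 268 to 372 CPM with T3, and 1 of the 9 that were tested was higher with T3. The 8 oligodendrocyte lineage markers summed to 41.0 to 144 CPM in normoxia and 133 to 189 CPM with T3, and none passed the test. Of 6 tested progenitor and cell cycle markers 1 was higher. Normoxia 1 held the lowest sums of these 3 lists, and without normoxia 3 the counts of higher members became 5, 5 and 5. All 7 microglia markers and all 7 endothelial and mural markers were too low to test, with Tmem119 and Cdh5 at 0 in at least 2 of the 3 libraries of each group. Summed microglia markers stood at 0.874 to 1.61 CPM in normoxia and 1.43 to 1.71 CPM with T3, and the part of other cells in the results was not tested.

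The hormone-treated hypoxic neurons stood far from normoxic neurons across most of the measured transcriptome. Genes of HIF signalling, glycolysis, the immediate early response, stress signalling, cytosolic ribosomes and respiratory chain complexes were higher. Genes of axon guidance, cell adhesion, ion channels and neurotransmitter receptors were lower, and many of them are long. Among all tested genes over 100 kb 1485 of 1986 were lower, while under 10 kb 43.4% were higher and 11.2% lower. These shifts are thus to be read beside gene length, described below. Tubulins were among the most abundant transcripts that fell. Of the 12923 genes tested 7117 changed (55.1%), 3300 of them higher (25.5%) and 3817 lower (29.5%). Counts of list members below are to be read beside these shares. The median change over all tested genes was 0.002 on the log2 scale, with quartiles at -0.295 and 0.261. Most changes were small. At least a 2-fold change was seen in 788 genes (6.1%), 279 higher (2.16%) and 509 lower (3.94%). In 8104 genes (62.7%) the 3 T3 libraries did not overlap the 3 normoxia libraries, 3845 of them above (29.8%) and 4259 below (33%). The split of called genes depended on scaling: rescaling the columns to equal sums shifted the overall median to 0.098, and then 4527 genes were higher and 2856 lower.

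On the first principal component, which held 67.8% of the variance, normoxia lay at -38.2 to -28.4, hypoxia at 2.9 to 14 and T3 at 17.6 to 32. The hormone-treated libraries thus lay farther from normoxia than each hypoxia library did, with T3 13 nearest to hypoxia. Against hypoxia alone 838 genes changed with T3 (6.48%), 353 higher (2.73%) and 485 lower (3.75%). That count ranged from 31 without T3 12 to 1817 without T3 13, and stood at 88, 43 and 46 without hypoxia 7, hypoxia 8 and T3 11 and at 455 without normoxia 2. For this reason differences from hypoxia are given below as values. A call against hypoxia is stated only where it held without each library in turn or with its range. Where T3 and hypoxia libraries are said not to overlap, only the values are described, and no call is meant. How many of all tested genes lacked such overlap was not counted.

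Among genes with all values on the read step, the largest increases were in genes of glucose handling, the immediate early response and growth control. Genes were ranked only if their T3 and normoxia libraries did not overlap, so that separation was fixed by the choice. Hk2, the hexokinase that traps glucose inside many growing cells, stood at 1.29, 2.02 and 2.0 CPM in normoxia, 44.3, 88.6 and 66.6 CPM in hypoxia and 84.5, 108 and 102 CPM with T3. All 3 T3 libraries lay above all normoxia libraries but overlapped hypoxia, and the change from normoxia was 5.17 on the log2 scale (SE 0.21, adjusted p = 3.7e-08). Its near neighbour by size, Eif3j2, a translation initiation subunit gene, read 0.0416, 0.0302 and 0.858 CPM in normoxia and 31.3, 26.1 and 75.8 CPM with T3 (5.01), but its reads can be divided with the near-identical paralog Eif3j1, so that value is uncertain. The zinc finger transcription factor gene Egr1 read 16, 18 and 16.3 CPM in normoxia, 66.9, 145 and 104 CPM in hypoxia and 163, 173 and 185 CPM with T3. Every T3 library exceeded every hypoxia library and every normoxia library, and Egr1 was 3.29 higher than in normoxia (SE 0.20, adjusted p = 8.9e-07). Fos, the AP-1 subunit, read 11.6, 13.6 and 28.8 CPM in normoxia, with normoxia 3 the highest, 82.9, 84.5 and 90.9 CPM in hypoxia and 173, 179.8 and 156 CPM with T3. It was 3.27 higher than in normoxia (SE 0.24, adjusted p = 2.7e-06), with no overlap between any 2 of the 3 groups. Sertad1, a regulator of the cell cycle and of E2F-driven transcription, rose from 1.08, 0.936 and 1.43 CPM to 19.1, 16.3 and 12.2 CPM, a change of 2.96. The matricellular protein gene Cyr61 changed by 2.45, Egr2 by 2.44, and the calcium-regulating hormone gene Stc2 by 2.30. Arl4d, a small ARF-like GTPase gene, rose from 6.74, 4.77 and 5.22 CPM to 38, 28.4 and 26.9 CPM. Its level in hypoxia was 13.4, 14 and 16.1 CPM, and the difference of T3 from hypoxia, 1.04 (adjusted p = 0.0093), was called without each library in turn.

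Among the same genes, the largest decreases were in very long genes of synapses, guidance and signalling. Grm8, a presynaptic metabotropic glutamate receptor, read 15.7, 16.5 and 19.8 CPM in normoxia, 3.11, 6.1 and 3.61 CPM in hypoxia and 1.49, 1.8 and 2.32 CPM with T3. The 3 groups did not overlap, and Grm8 fell by 2.68 (log2; SE 0.19, adjusted p = 2.7e-06). Unc5c and Dcc, which encode receptors for the guidance cue netrin, fell by 2.64 and 2.40. Dcc read 107, 97.9 and 137 CPM in normoxia and 16.2, 18.4 and 28.8 CPM with T3. Csmd3, a large membrane protein of synapses, fell by 2.37, and the cyclic GMP-dependent kinase gene Prkg1 fell by 2.26. Nckap5 fell by 2.26, the receptor tyrosine phosphatase gene Ptprk by 2.18 and the growth factor gene Pdgfc by 2.07. The potassium channel genes Kcnq5 and Kcnh1 fell by 2.11 and 2.09, and the cadherin gene Cdh18 fell by 2.07. Thrb, the thyroid hormone receptor beta gene, was also in this group and is described with the hormone genes. These 12 genes spanned 177.6 kb, in Pdgfc, to 1211.9 kb, in Csmd3.

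**Figure D1:**
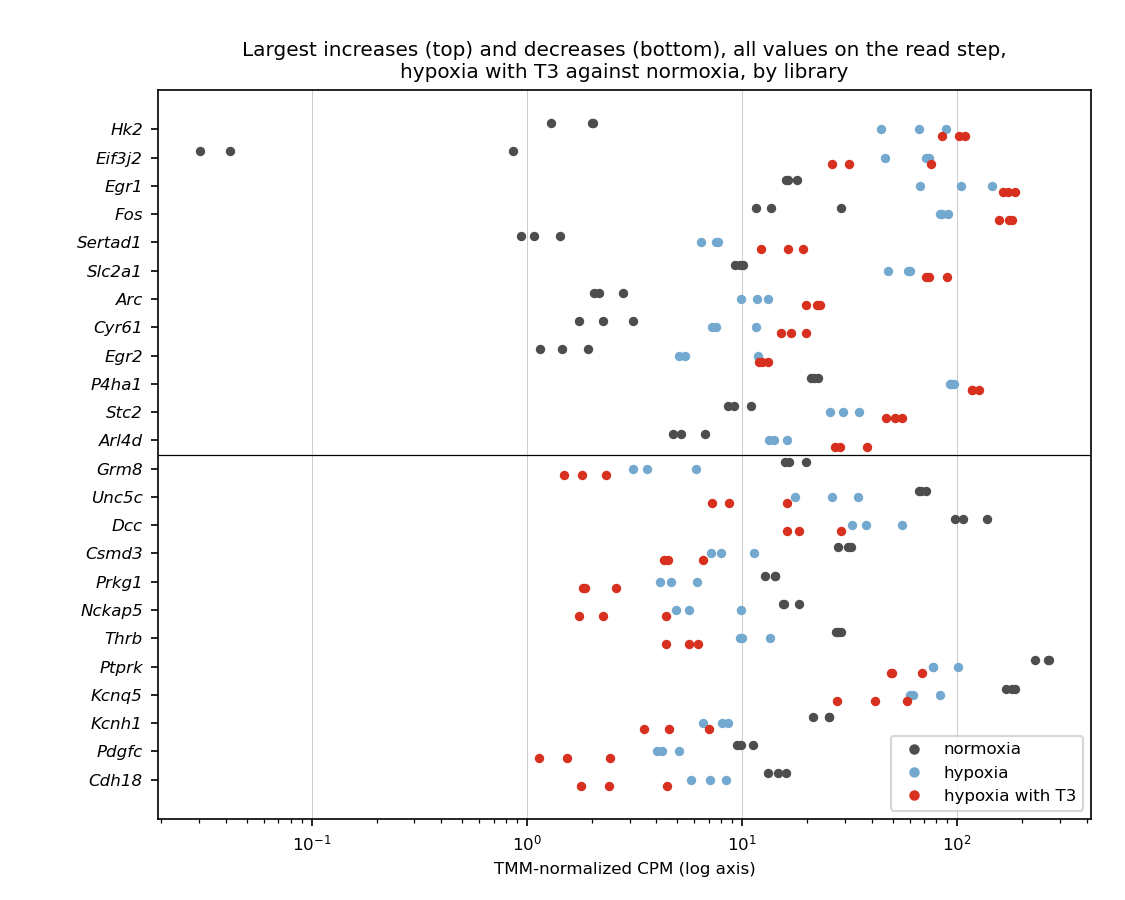
TMM-normalised CPM on a log axis for the 12 largest increases and the 12 largest decreases of hypoxia with T3 against normoxia among named genes with all values on the read step and a higher-group mean of 5 CPM or more, with 1 point for each of the 9 libraries, marked by group. Only genes whose T3 and normoxia libraries did not overlap were shown. Among the genes shown, hypoxia and T3 libraries overlapped in Hk2, Eif3j2 and Kcnh1. Ranking by the change from normoxia used the T3 values, so the choice favoured genes whose T3 values lay beyond hypoxia. The share of all tested genes with such overlap was not counted.

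HIF-responsive genes were higher almost without exception in the hormone-treated hypoxic neurons. Of 34 tested members of the list, 32 were higher than in normoxia and none lower (25.5% of all tested genes were higher), with a median change of 1.49, and 25 changed at least 2-fold. The counts stayed between 30 and 32 when single libraries were left out. By role, 5 of 5 secreted factors, 10 of 11 genes of glucose metabolism, 9 of 9 oxygen sensors and regulators, 2 of 3 genes of mitochondria and mitophagy and 6 of 6 genes of collagen and pH were higher. The members that did not pass were Pfkfb4, at 23.4, 22.3 and 19.9 CPM in normoxia and 22.1, 21.6 and 24.4 CPM with T3, and the mitophagy receptor gene Bnip3l, with a change of 0.11. Another 7 of the 41 listed genes were too low to test. Against hypoxia, 11 of the 34 were higher with T3 and none lower, a count that ranged from 1 to 18 without single libraries.

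The promoters of 4 members are shown for the short DNA element that HIF binds. The element was searched as ACGTG or GCGTG on both strands, where the reverse strand reads CACGT or CACGC, with overlapping matches counted. Capitals mark the matches in the 300 bases from 250 before to 50 after the start of each gene, from RefSeq on the build GRCm38.p6. The promoters are Slc2a1 at chr4:119108495-119108794 on the plus strand, Hk2 at chr6:82774405-82774704 on the minus strand, P4ha1 at chr10:59323046-59323345 on the plus strand and Bnip3 at chr7:138909457-138909756 on the minus strand, each written 5′ to 3′ along its gene.
Slc2a1: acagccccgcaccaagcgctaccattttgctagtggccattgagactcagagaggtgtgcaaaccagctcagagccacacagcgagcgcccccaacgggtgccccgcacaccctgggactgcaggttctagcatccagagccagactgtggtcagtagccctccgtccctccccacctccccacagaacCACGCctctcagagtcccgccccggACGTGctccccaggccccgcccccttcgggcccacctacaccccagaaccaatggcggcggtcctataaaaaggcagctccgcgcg
Hk2: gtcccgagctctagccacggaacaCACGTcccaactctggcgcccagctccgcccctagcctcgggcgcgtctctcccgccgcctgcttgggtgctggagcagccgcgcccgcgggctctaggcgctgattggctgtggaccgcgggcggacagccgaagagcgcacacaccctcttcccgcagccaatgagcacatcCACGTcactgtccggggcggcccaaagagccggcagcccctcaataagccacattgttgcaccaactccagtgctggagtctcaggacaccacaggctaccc
P4ha1: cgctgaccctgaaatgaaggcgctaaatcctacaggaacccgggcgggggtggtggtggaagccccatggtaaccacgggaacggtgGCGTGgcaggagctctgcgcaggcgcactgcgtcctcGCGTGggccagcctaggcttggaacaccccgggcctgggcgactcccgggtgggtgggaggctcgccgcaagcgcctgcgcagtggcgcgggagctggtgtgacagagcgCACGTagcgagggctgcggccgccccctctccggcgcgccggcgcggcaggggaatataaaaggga
Bnip3: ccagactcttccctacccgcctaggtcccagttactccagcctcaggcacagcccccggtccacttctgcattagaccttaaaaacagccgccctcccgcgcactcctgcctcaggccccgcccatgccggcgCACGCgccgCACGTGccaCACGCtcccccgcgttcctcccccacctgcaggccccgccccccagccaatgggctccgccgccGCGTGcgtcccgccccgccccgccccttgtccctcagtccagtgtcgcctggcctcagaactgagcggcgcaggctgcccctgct
Slc2a1 and Hk2 held 2 matches each, P4ha1 held 3 and Bnip3 held 5, of which some overlap. Among the 28 list members with a RefSeq promoter, 27 held at least 1 match (96.4%), against 68.7% of the 9687 tested genes with a promoter and 43.8% of all 32851 promoters in the table. A match describes the letters in this window and is not evidence of a bound site.

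Among the secreted factors, Vegfa, the growth factor for blood vessels, stood as deposited at 39.5, 51 and 40.3 CPM in normoxia, 159.9, 173 and 188 CPM in hypoxia and 241, 231 and 233 CPM with T3. Its 6 values in low oxygen were off the read step, and its change was 2.41 (SE 0.09, adjusted p = 3.4e-08). Adm, a vasodilator peptide gene, was low, at 0.167, 0.181 and 0.25 CPM in normoxia and 2.98, 3.29 and 1.47 CPM with T3 (1.54). In glucose metabolism, Slc2a1, the glucose transporter GLUT1, read 9.78, 9.24 and 10.1 CPM in normoxia, 47.8, 60 and 59.2 CPM in hypoxia and 71.8, 89.2 and 73.7 CPM with T3. The 3 groups were fully separate, and the change from normoxia was 2.88 (SE 0.10, adjusted p = 3.1e-08). Pfkfb3, the enzyme that makes the main activator of phosphofructokinase, rose from 79.6, 75.1 and 69.3 CPM to 354, 378 and 329.9 CPM (2.23). Its hypoxia level was 258, 249 and 245 CPM, and its excess with T3 of 0.49 (adjusted p = 0.0063) was called without each library in turn. Pdk1, the kinase that blocks pyruvate dehydrogenase, read 50.8, 57 and 55.5 CPM in normoxia, 179, 205 and 184 CPM in hypoxia and 188, 209 and 206 CPM with T3. Its T3 and hypoxia libraries overlapped, all above normoxia, and the change with T3 was 1.87 (adjusted p = 3.4e-08).

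The collagen prolyl hydroxylase gene P4ha1 had the smallest adjusted p of all members. It read 20.9, 21.6 and 22.5 CPM in normoxia, 96.2, 92.2 and 93.3 CPM in hypoxia and 117, 127 and 117 CPM with T3, a change of 2.42 (SE 0.06, adjusted p = 1.2e-09). Bnip3, a mitophagy receptor, stood at 52.7, 50.4 and 54.7 CPM in normoxia and 182, 201 and 181 CPM with T3 (1.82, adjusted p = 3.6e-08), and its hypoxia values of 161, 187 and 157 CPM overlapped those with T3. Ddit4, an inhibitor of the growth kinase mTORC1, rose by 1.85, and the oxygen-dependent histone demethylase gene Kdm3a by 1.72. Of 5 oxygen sensor genes of the pathway that marks HIF for destruction 3 were higher and none lower. Egln3 read 1.71, 0.906 and 1.21 CPM in normoxia and 7.39, 10.4 and 5.79 CPM with T3 (1.94), Egln1 rose by 0.86, and Vhl, which encodes the ligase that binds hydroxylated HIF, rose by 0.50. The HIF subunit genes differed among themselves. Hif1a read 97.8, 95.5 and 96.8 CPM in normoxia and 80, 94.1 and 86.3 CPM with T3, a difference of -0.16 (adjusted p = 0.071, or 0.028 without T3 12). Arnt, its partner, fell by 0.34, a call that was lost without normoxia 2 (adjusted p = 0.056) and with equal column sums (0.084). The inhibitory subunit gene Hif3a fell from 4.75, 4.95 and 3.04 CPM to 1.46, 1.7 and 2.03 CPM (-0.93). Epas1, which encodes the HIF2 alpha subunit, was low, at 0.25, 1.15 and 1.39 CPM in normoxia and 2.45, 4.76 and 2.89 CPM with T3 (1.2, adjusted p = 0.0082), with T3 13 off the read step. Of all 10 sensors and subunits 4 were higher and 3 lower.

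**Figure D2:**
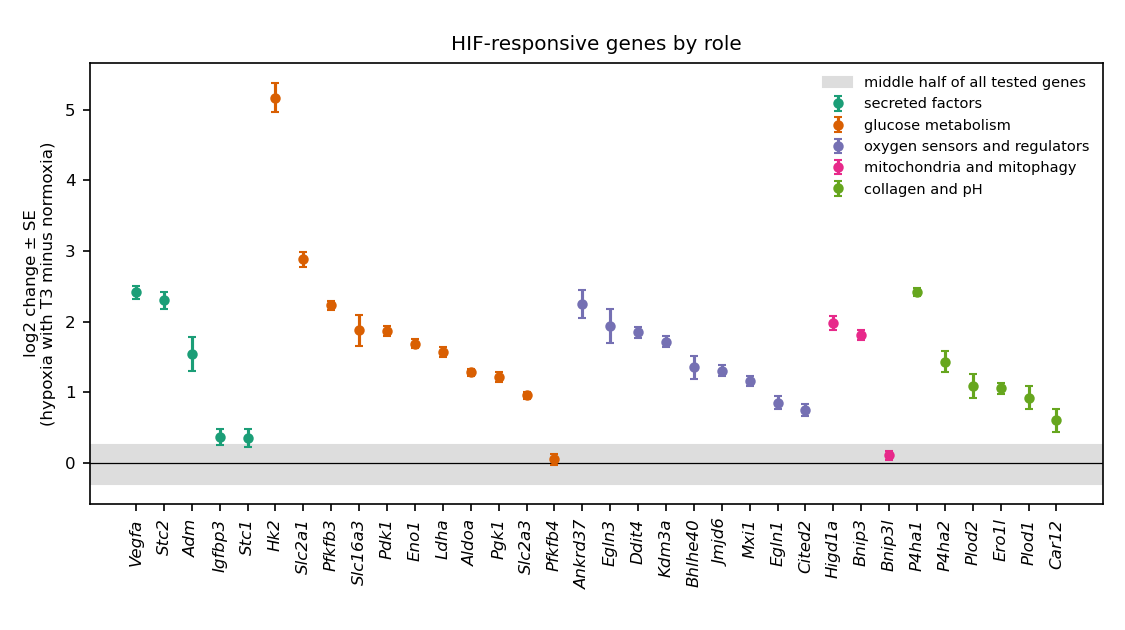
Change of hypoxia with T3 from normoxia (log2, with SE) of the 34 tested HIF-responsive genes, grouped by role, with a grey band between the quartiles of all tested genes. All members but Pfkfb4 and Bnip3l were called higher, with Hk2 the farthest at 5.17.

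Glycolysis was raised along nearly its whole trunk. Of 33 tested genes of glycolysis and lactate 23 were higher and 2 lower (25.5% and 29.5% of all tested genes). Their median was 0.92. Higher members made up 12 of 13 trunk enzymes, 4 of 5 genes of glucose entry and 6 of 11 genes of lactate and pyruvate. Ldha, which turns pyruvate to lactate, rose from 361, 327 and 358 CPM to 1060.2, 1108 and 954 CPM (1.57), and its hypoxia libraries, at 859, 956 and 937 CPM, overlapped those with T3. Aldoa, the main aldolase, rose by 1.28, the enolase gene Eno1 by 1.69, the phosphofructokinase gene Pfkl by 1.71 and Gapdh by 0.99. The lactate exporter gene Slc16a3 was low, at 0.25, 0.332 and 0.607 CPM in normoxia and 4.37, 5.09 and 3.07 CPM with T3 (1.88). Slc16a7, the high-affinity monocarboxylate carrier of neurons, went the other way, from 20.5, 18.8 and 21.7 CPM to 7.03, 7.82 and 9.36 CPM (-1.24, adjusted p = 2.2e-05). The other lower member was the regulatory enzyme gene Pfkfb1, at 1.54, 1.57 and 1.79 CPM in normoxia and 1.03, 1.1 and 1.01 CPM with T3, and its call was lost without any 1 of the 6 libraries compared (adjusted p = 0.055 to 0.11). In the tricarboxylic acid cycle, which oxidises what glycolysis feeds it, 3 of 12 members were higher and 2 lower, with a median of 0.04. With equal column sums these counts were 7 and 1, and without T3 12 or T3 13 the lower count was 1.

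Immediate early genes, the rapid first wave of transcription after a stimulus, were mostly higher. Of 35 tested members 26 were higher and 5 lower (25.5% and 29.5% of all tested genes). Their median was 1.28, and 20 rose at least 2-fold. The higher members included 6 of 7 AP-1 subunits, 4 of 7 EGR and NR4A factors and 16 of 21 effectors. Jun, the AP-1 partner of Fos, read 70.3, 61 and 60.8 CPM in normoxia, 173, 147 and 179.8 CPM in hypoxia and 306, 273 and 277 CPM with T3. It rose by 2.14 over normoxia (adjusted p = 3.6e-08), and its excess over hypoxia of 0.78 (adjusted p = 0.002) was called without each library in turn. Arc, a regulator of AMPA receptor traffic at synapses, rose from 2.16, 2.05 and 2.79 CPM to 23, 22.4 and 19.9 CPM (2.77, adjusted p = 8e-08), with 9.89, 13.2 and 11.7 CPM in hypoxia. Ier2, a nuclear protein gene, changed by 2.26, the stress transcription factor gene Atf3 by 1.77 and Klf4 by 1.53. Gadd45b, which codes for a stress sensor with 1 value off the read step, rose from 1.5, 1.18 and 1.82 CPM to 37.9, 29.7 and 28.9 CPM (3.73). The lower members were Klf6, Fosl2, Nr4a3, Homer1 and Bdnf. Klf6, a Kruppel-like factor gene, read 241, 245 and 261 CPM in normoxia, 173, 182 and 152 CPM in hypoxia and 123, 114 and 124 CPM with T3 (-1.04), with no overlap between groups. Homer1, a postsynaptic scaffold gene, fell by 0.52, and Bdnf, the main activity-regulated neurotrophin, fell by 0.30, with 5 of its 6 compared values off the read step and its call lost without normoxia 1 or 2 or T3 11 or 12 (adjusted p = 0.056 to 0.098). Against hypoxia, 16 members were higher with T3 and 2 lower, where the higher count ranged from 4 to 15 without single libraries.

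The feedback inhibitors of MAP kinase signalling moved in the same direction. Of 16 tested members 12 were higher and 1 lower (2 lower without normoxia 1), with a median of 0.62. Over all tested genes 25.5% were higher. Dusp1, a phosphatase that switches off MAP kinases, rose from 24.9, 20.9 and 20.1 CPM to 83.4, 73.2 and 69.7 CPM (1.74), with 57.8, 44.2 and 45.4 CPM in hypoxia. The ERK phosphatase gene Dusp6 rose by 1.17 and the receptor kinase inhibitor gene Spry4 by 1.33. Spred2, another inhibitor of this pathway, fell by 0.50.

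The integrated stress response, in which a block on general translation lets the factor ATF4 accumulate, was higher in its target genes. Of 24 tested members 18 were higher and none lower (1 lower without normoxia 3, with library weights and by edgeR), with a median of 0.58. The share higher over all tested genes was 25.5%. Atf4 itself read 183, 191 and 212 CPM in normoxia, 353, 305 and 335 CPM in hypoxia and 507, 450.4 and 450.2 CPM with T3. All T3 libraries lay above all hypoxia libraries, and the change from normoxia was 1.26 (adjusted p = 5.9e-07). Ppp1r15a, the phosphatase subunit that lifts the block on translation, rose from 32, 32.7 and 39.1 CPM to 155, 146 and 127 CPM (2.01). Sesn2, an inhibitor of mTORC1, rose by 1.87, the pseudokinase gene Trib3 by 1.59, the transcription factor gene Ddit3 (CHOP) by 1.12 and the mitochondrial folate enzyme gene Mthfd2 by 1.03. Chaperones of the endoplasmic reticulum showed no such shift. Of 24 tested genes of the unfolded protein response 9 were higher and 7 lower, with a median of 0.04, and with equal column sums 12 were higher and 4 lower. Herpud1, a factor of protein degradation at that membrane, rose from 40, 43.3 and 41.2 CPM to 111, 105 and 109 CPM (1.36). The cochaperone gene Dnajb9 rose by 0.98, while the stress sensor gene Atf6 fell by 0.67 and the disulfide isomerase gene Pdia6 fell by 0.40.

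Other protective and growth arrest programmes were raised by smaller amounts. Of 20 heat shock protein genes 14 were higher and none lower, with a median of 0.25. This list had a median length of 11.6 kb. Among all tested genes 25.5% were higher, and among those under 10 kb 43.4%, with a median of 0.20. Hspa1b, the inducible HSP70, rose from 17.3, 11.7 and 10.8 CPM to 47.7, 47.6 and 41.3 CPM (1.73), and its cofactor gene Hsph1 rose by 0.73. Of 20 antioxidant genes known as targets of the factor NRF2, 16 were higher and none lower, with a median of 0.41. Hmox1, the inducible haem oxygenase, read 2.66, 3.02 and 4.82 CPM in normoxia, 8.93, 10.4 and 22.9 CPM in hypoxia and 14.8, 26.4 and 13.1 CPM with T3 (2.05), with T3 12 well above the other T3 libraries. The iron storage gene Fth1 was steadier, at 627, 599 and 693 CPM in normoxia and 961, 929 and 881 CPM with T3 (0.53), and the thioredoxin reductase gene Txnrd1 rose by 0.61. Of 15 p53 targets and growth arrest genes 11 were higher and 1 lower, with a median of 0.52. Cdkn1a, the cyclin-dependent kinase inhibitor p21, rose from 87.1, 79.6 and 89.6 CPM to 176, 169.9 and 155 CPM (0.96), and Trp53 itself by 0.62. The lower member was Rrm2b, a ribonucleotide reductase subunit gene (-0.55).

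Genes of cell death were counted by role, beside 25.5% higher and 29.5% lower among all tested genes. Of 10 pro-apoptotic members 8 were higher and none lower, of 4 pro-survival members 1 was higher and 2 lower, and of 7 caspases 1 was higher and 4 lower. Several members, among them Bad, Bak1 and Bcl2l2, were partly off the read step, and of the 18 members without such values 8 were higher and 6 lower. Bcl2l11, the activator BIM, read 3.58, 3.93 and 4.07 CPM in normoxia, 7.69, 6.48 and 15.8 CPM in hypoxia and 19.8, 20.8 and 20.3 CPM with T3. The T3 libraries were close to each other and above hypoxia 9, the highest hypoxia library, and the change from normoxia was 2.13 (SE 0.23, adjusted p = 3e-05). Bcl2, the founding pro-survival gene, fell from 15.2, 15.5 and 16.5 CPM to 8.6, 10.7 and 10.6 CPM (-0.61), while Mcl1, another pro-survival gene, rose by 0.39. The initiator gene Casp9 fell by 0.51. In autophagy and mitophagy 11 of 25 genes were higher and 5 lower, with a median of 0.11. With equal column sums, or without normoxia 1, the lower count was 3.

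The machinery that carries and reads thyroid hormone was mostly lower where it moved. Of 21 tested genes of hormone receptors, transport and cofactors 9 were lower and 2 higher (1 higher without normoxia 3 or T3 13), with a median of -0.15. Of the 9 over 100 kb 7 were lower, against 1485 of 1986 among all tested genes over 100 kb. Of the 12 under 100 kb 2 were lower and 2 higher, with a median of 0.02. Thrb, the receptor that T3 signalling itself often regulates, read 27.4, 27.9 and 28.7 CPM in normoxia, 9.95, 13.5 and 9.74 CPM in hypoxia and 4.41, 5.66 and 6.21 CPM with T3. The 3 groups did not overlap, and Thrb fell by 2.19 (log2; SE 0.14, adjusted p = 9.3e-07). Thra, the other receptor gene, read 1172, 1036 and 1049 CPM in normoxia and 1179.5, 1133 and 1101 CPM with T3, a difference of 0.07 that did not pass the test (adjusted p = 0.34, or 0.0042 with equal column sums). The amino acid carrier gene Slc7a5, whose complex also carries thyroid hormone, rose by 0.39. Of the 10 cofactor genes 6 were lower and none higher. The coactivator gene Ncoa2 fell by 1.07, the corepressor complex genes Tbl1x and Tbl1xr1 by 1.09 and 1.07, and the corepressor gene Ncor1, with 2 values off the read step, by 0.58. Dio3, the deiodinase that inactivates T3, was too low to test, at 0, 0.0302 and 0.0357 CPM in normoxia, 0.0565, 0.103 and 0.162 CPM in hypoxia and 0.568, 0.333 and 0.425 CPM with T3.

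Genes known to respond to T3 in neurons were higher in greater number than lower. Of 37 tested members 20 were higher and 7 lower (4 lower with equal column sums), with a median of 0.46, and 11 rose and 2 fell at least 2-fold. The shares over all tested genes were 25.5% higher and 29.5% lower. Of the 29 members under 100 kb 20 were higher and 4 lower, and of the 8 over 100 kb none were higher and 3 lower. Hr, a corepressor that T3 induces directly, read 4.62, 4.56 and 3.72 CPM in normoxia, 4.35, 4.55 and 5.19 CPM in hypoxia and 34.2, 34.2 and 30.1 CPM with T3. Normoxia and hypoxia overlapped and the T3 libraries stood apart from both, with a change of 2.68 from normoxia (adjusted p = 3.7e-08) and of 2.57 from hypoxia (adjusted p = 9.2e-07). Klf9, a Kruppel-like factor gene with a known thyroid response element, showed the same order, with 18.4, 17.4 and 24.1 CPM in normoxia, 20.4, 19.8 and 24.8 CPM in hypoxia and 48, 48.9 and 57.7 CPM with T3 (1.33, adjusted p = 1.4e-05). Cyp26b1, which degrades retinoic acid, rose from 17.9, 19.3 and 18.1 CPM to 76.3, 65.3 and 76.7 CPM (1.92). Hr, Klf9 and Cyp26b1 each held 1 value off the read step, in hypoxia 9, so their changes from normoxia compared no such value. The medium neurofilament gene Nefm read 84.7, 86.9 and 86.9 CPM in normoxia, 97.9, 100.4 and 124 CPM in hypoxia and 181, 189 and 178 CPM with T3. Its change was 1.08 from normoxia (adjusted p = 2.7e-06) and 0.77 from hypoxia (adjusted p = 0.0018), and the light neurofilament gene Nefl rose by 0.65 over normoxia. Shh, a secreted patterning signal, was low, at 1.12, 1.81 and 1.21 CPM in normoxia and 4.23, 5.12 and 4.68 CPM with T3 (1.26). Rasd2, a striatal GTPase gene that depends on thyroid hormone, rose by 1.42, and the neurotrophin gene Ntf3 fell from 7.87, 5.26 and 5.18 CPM to 1.03, 1.1 and 2.06 CPM (-1.57). Against hypoxia, 11 members were higher and 1 lower, and the higher count ranged from 5 to 13 without single libraries. Of the 25 members with a RefSeq promoter, none held 2 copies of AGGTCA in the same direction with 4 bases between them in the same 300-base window, searched on both strands, and none of the 9687 tested genes did.

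Clock genes were unevenly placed. Of 20 tested members 10 were higher and 4 lower (25.5% and 29.5% of all tested genes), with a median of 0.27. Ciart, a repressor of the clock, rose from 3.29, 3.17 and 3.25 CPM to 22.8, 20.4 and 15.9 CPM (2.27), with 12, 10.2 and 11.4 CPM in hypoxia. Dbp, a clock output factor gene that also responds to T3, rose from 2.75, 1.75 and 2.07 CPM to 6.79, 5.56 and 6.38 CPM (1.19, adjusted p = 9.7e-05). Rorb, a nuclear receptor gene that also marks cortical layer 4, read 68.4, 74.4 and 74.7 CPM in normoxia, 34.1, 36.1 and 29.8 CPM in hypoxia and 14.9, 17.9 and 18.8 CPM with T3. It fell by 2.02 from normoxia (adjusted p = 1.2e-07), and its difference from hypoxia of -0.91 (adjusted p = 0.0018) was called without each library in turn. Npas2 fell by 1.24 and Clock by 0.53, while Arntl, which encodes their partner BMAL1, lay at the threshold. It differed by -0.39 at an adjusted p of 0.05 by limma and was not called, but several other settings called it, among them edgeR (adjusted p = 0.044), DESeq2 (0.029) and the fits without hypoxia 7 (0.029), hypoxia 9 (0.011) or T3 13 (0.049).

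The direction of change followed the genomic length of genes across the whole table. A length from the RefSeq annotation of GRCm38.p6 was matched to 12848 of the 12923 tested genes (99.4%). The median change was 0.20 in 3117 genes under 10 kb, 0.11 in 4096 genes of 10 to 30 kb, -0.12 in 3649 genes of 30 to 100 kb, -0.46 in 1492 genes of 100 to 300 kb and -1.0 in 494 genes over 300 kb. Under 10 kb 43.4% of genes were higher and 11.2% lower. Over 300 kb 0.4% were higher and 90.5% lower. The genes over 300 kb that were higher were Kcnip1, which encodes a potassium channel partner (0.38), and the imprinted splicing gene Snrpn (0.19). The Kcnip1 call was lost without normoxia 2 or 3, hypoxia 7 or T3 11 or 13 (adjusted p = 0.052 to 0.16), and the Snrpn call without normoxia 2 or 3 or T3 11 or 12 (0.058 to 0.1). By library, the median of genes over 300 kb relative to the normoxia mean was -1.13 in T3 11, -1.04 in T3 12 and -0.78 in T3 13. It was -0.68, -0.48 and -0.74 in the hypoxia libraries and between -0.05 and 0.05 in normoxia. Of the 50 longest tested genes, from 1057.2 to 2390.4 kb, 45 were lower and none higher, with a median of -1.11. Dmd, the dystrophin gene and the longest of them, read 28.1, 36.4 and 39.9 CPM in normoxia, 15.7, 20.6 and 18.8 CPM in hypoxia and 9.98, 13.1 and 13.2 CPM with T3 (-1.45). With equal column sums the median of the 30 to 100 kb class was -0.02 and that of the class under 10 kb 0.30.

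**Figure D3:**
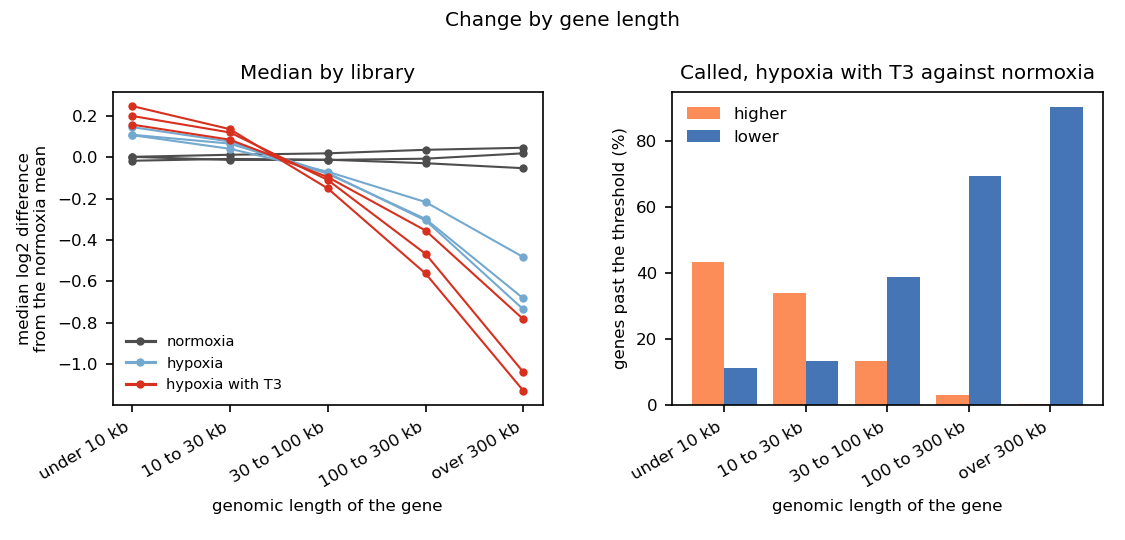
Left, median log2 difference from the normoxia mean in each of the 9 libraries, for 5 classes of genomic length. Right, percent of genes called higher or lower with T3 against normoxia in each class, from 43.4% higher and 11.2% lower under 10 kb to 0.4% higher and 90.5% lower over 300 kb.

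Axon guidance genes, which steer growing axons by attraction and repulsion, were mostly lower. Of 44 tested members 32 were lower and none higher (29.5% of all tested genes were lower), with a median of -0.88, and 20 fell at least 2-fold. With equal column sums 31 were lower and 4 higher, with quantile normalization 32 and 3, and 2 were higher without normoxia 1 and 1 without hypoxia 9. Most of them are long genes: of the 33 over 100 kb 27 were lower, with a median of -1.18, and of the 11 under 100 kb 5 were lower, with a median of -0.06. Among all tested genes over 100 kb 1485 of 1986 were lower, with a median of -0.55. All 5 Slit and Robo genes, 15 of 19 semaphorins and plexins, 8 of 12 ephrins and Eph receptors and 4 of 8 netrin receptors and partners were lower. Robo2, a receptor for the repellent Slit, read 199, 189.6 and 200.2 CPM in normoxia, 85.5, 81 and 79.2 CPM in hypoxia and 66.7, 63.2 and 70.1 CPM with T3. It fell by 1.55 (adjusted p = 3.1e-08) with no overlap between groups, and Robo1 fell by 1.67 and the ligand gene Slit2 by 1.60. Unc5c, the repulsive netrin receptor gene, read 66.2, 67.6 and 71.2 CPM in normoxia, 26.1, 34.5 and 17.6 CPM in hypoxia and 7.21, 8.68 and 16.1 CPM with T3. The secreted repellent gene Sema3a fell from 43.3, 46.5 and 42.9 CPM to 10.5, 12.4 and 12.9 CPM (-1.81). Its difference from hypoxia of -0.88 (adjusted p = 0.0084) was called without each library in turn. The ephrin receptor gene Epha7 fell by 1.34, while Epha4 differed by 0.08 without passing the test.

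Cell adhesion genes fell with few exceptions. Of 23 cadherins and protocadherins 21 were lower and none higher (1 higher with equal column sums, with quantile normalization or without normoxia 1), with a median of -1.04. Of the 17 over 100 kb 16 were lower, and of the 6 under 100 kb 5, with medians of -1.11 and -0.67. Pcdh20 fell from 28.7, 34.6 and 33.3 CPM to 10.6, 9.81 and 8.8 CPM (-1.63), and Cdh2, which encodes the N-cadherin of synapses, from 424, 365 and 386 CPM to 162, 194 and 218 CPM (-1.04). Of 32 genes of synaptic adhesion 29 were lower and 1 higher, with a median of -1.06, against 90.5% lower among all genes over 300 kb. Their median length was 855 kb, and the 6 members under 100 kb had a median of -0.18, with 4 lower and 1 higher. Csmd3 read 31, 28 and 32 CPM in normoxia, 7.97, 11.4 and 7.19 CPM in hypoxia and 4.51, 4.32 and 6.61 CPM with T3, with no overlap between groups. Nlgn1, a postsynaptic adhesion and organiser gene, fell by 1.81. Flrt2, which codes for a repellent and adhesion protein, fell by 1.42, and Il1rapl1, an organiser of excitatory synapses, by 1.82. The higher member was Lrrtm1, a postsynaptic adhesion gene, which rose from 93.3, 93.6 and 105 CPM to 148, 155 and 144 CPM (0.61).

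Receptors for transmitters were lower in most subfamilies. Of 38 glutamate receptors and scaffolds 27 were lower and 3 higher, with a median of -0.55. With equal column sums 24 were lower and 6 higher. Of the 24 over 100 kb 22 were lower, with a median of -1.04, and of the 14 under 100 kb 5 were lower and 3 higher, with a median of -0.04. The lower members made up 6 of 9 AMPA and kainate subunits, 3 of 5 NMDA subunits, 6 of 7 metabotropic receptors and 12 of 17 scaffolds. Gria2, the AMPA subunit that blocks calcium entry, fell from 538, 601 and 558 CPM to 284, 288 and 292 CPM (-0.97), with 356, 347 and 306 CPM in hypoxia. The NMDA subunit gene Grin2b fell by 1.44, although normoxia 2, at 86.9 CPM, lay below the other normoxia libraries. The scaffold gene Dlg4 (PSD-95) rose by 0.21 and Homer3 by 0.47, while the obligatory NMDA subunit gene Grin1 differed by -0.09 and the kinase gene Camk2a by 0.12, neither past the test. Of 35 GABA receptor and interneuron genes 16 were lower and 4 higher, and 10 of the 11 over 100 kb were lower. The 16 lower genes included 12 of 15 receptor genes. Among them, Gabrb2 fell from 181, 175 and 195 CPM to 65.3, 75.2 and 89.1 CPM (-1.26). Among 20 interneuron identity genes 4 were lower and 3 higher. Calb1, a calcium-binding protein gene, fell from 69.6, 64.7 and 64.1 CPM to 20.9, 18.6 and 19 CPM (-1.71, adjusted p = 4.8e-08). Gad1, which makes GABA, read 167, 148 and 115 CPM in normoxia and 160.2, 111 and 111 CPM with T3, and it, Gad2 and Sst did not pass the test.

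Ion channel genes, which set the excitability of neurons, had 38 of 44 tested members lower and 1 higher, with a median of -0.80. Of the 32 over 100 kb 30 were lower, with a median of -0.95, and of the 12 under 100 kb 8 were lower and 1 higher, with a median of -0.31. The lower members included 22 of 25 potassium and HCN channels and 16 of 19 sodium and calcium channels. Kcnq5, a channel of the M current, read 180.4, 169 and 186 CPM in normoxia, 62.1, 83.6 and 60 CPM in hypoxia and 27.7, 41.3 and 58.1 CPM with T3. All T3 libraries lay below all hypoxia libraries, with T3 13 the highest of them and close to hypoxia 9. The difference of T3 from hypoxia, -0.73, was not called (adjusted p = 0.056). The calcium channel subunit gene Cacna2d1 fell from 289, 292 and 287 CPM to 81.5, 96.7 and 109 CPM (-1.60, adjusted p = 1.1e-06). The machinery of vesicle release was divided. Of 32 tested members 15 were lower and 5 higher, with a median of -0.10, but with equal column sums 12 were lower and 12 higher, and with quantile normalization 14 and 10. Of the 13 over 100 kb 12 were lower, and of the 19 under 100 kb 3. Cadps2, a priming factor for dense-core vesicles, read 80.8, 74.3 and 68.9 CPM in normoxia, 21.9, 20.8 and 22 CPM in hypoxia and 24.2, 21.7 and 21.9 CPM with T3. Both low-oxygen groups lay well below normoxia (-1.68 with T3), and their difference was 0.06 (adjusted p = 0.63). The active zone genes Rims1 and Rims2 fell by 1.03 and 1.33, and the calcium sensor gene Syt1 by 0.74. Among vesicle protein genes Syp rose by 0.22 and Vamp2 by 0.27, whereas Snap25 differed by 0.03 without passing the test.

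Transcription factors of cortical layers were lower where they changed. Of 23 tested members 16 were lower and none higher (1 higher without normoxia 3 and with equal column sums), with a median of -0.48. Of the 11 over 100 kb 10 were lower, and of the 12 under 100 kb 6. Sox5, a factor of deep-layer neurons, read 95.4, 95.5 and 109 CPM in normoxia, 39.8, 56.5 and 38.8 CPM in hypoxia and 15.3, 26.4 and 38.4 CPM with T3. The groups did not overlap. It fell by 1.95 (SE 0.25, adjusted p = 9.1e-05), and Foxp1 fell by 1.17, while Tbr1, a marker of deep-layer neurons, differed by -0.13 and was not called. In neurotrophin signalling 9 of 12 members were lower and 1 higher, with a median of -0.74, and all 6 over 100 kb were lower. Ntrk2, the receptor for BDNF, fell from 633, 577 and 566 CPM to 201, 225 and 252 CPM (-1.39, adjusted p = 5.8e-07), with 283, 322 and 299 CPM in hypoxia. Ntrk3 fell by 1.26, and the receptor kinase gene Ret rose by 0.37.

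Among genes of the cytoskeleton most tubulins were lower. Of 25 tested members 11 were lower and 3 higher, with a median of -0.11, and with equal column sums 8 were higher. Tubb3, the neuronal beta tubulin and a short gene, read 2578, 2278 and 2262 CPM in normoxia, 922, 1357 and 1033 CPM in hypoxia and 563, 701 and 838 CPM with T3. No library of any group overlapped another group, and Tubb3 fell by 1.77 (SE 0.15, adjusted p = 7e-06). Tubb2a fell by 1.36, while the microtubule-binding protein genes Map2 and Mapt did not pass the test, with differences of at most 0.01 in size. The labelled cell type could be checked on general neuronal markers. All 15 were detected, 6 were lower and none higher (2 higher with equal column sums), and their summed level was 7296 to 7891 CPM in normoxia and 4910 to 5128 CPM with T3. Their median change was only -0.126, and in the sum Tubb3 alone went from a mean of 2373 CPM to 701 CPM. The lower markers included Tubb3, Bcl11b, Syt1, Dcx and Neurod6, the last of which was not called without normoxia 1 (adjusted p = 0.056) or T3 11 (0.062), whereas Rbfox3 (NeuN) read 113, 106 and 96.9 CPM in normoxia and 106, 97 and 108 CPM with T3.

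**Figure D4:**
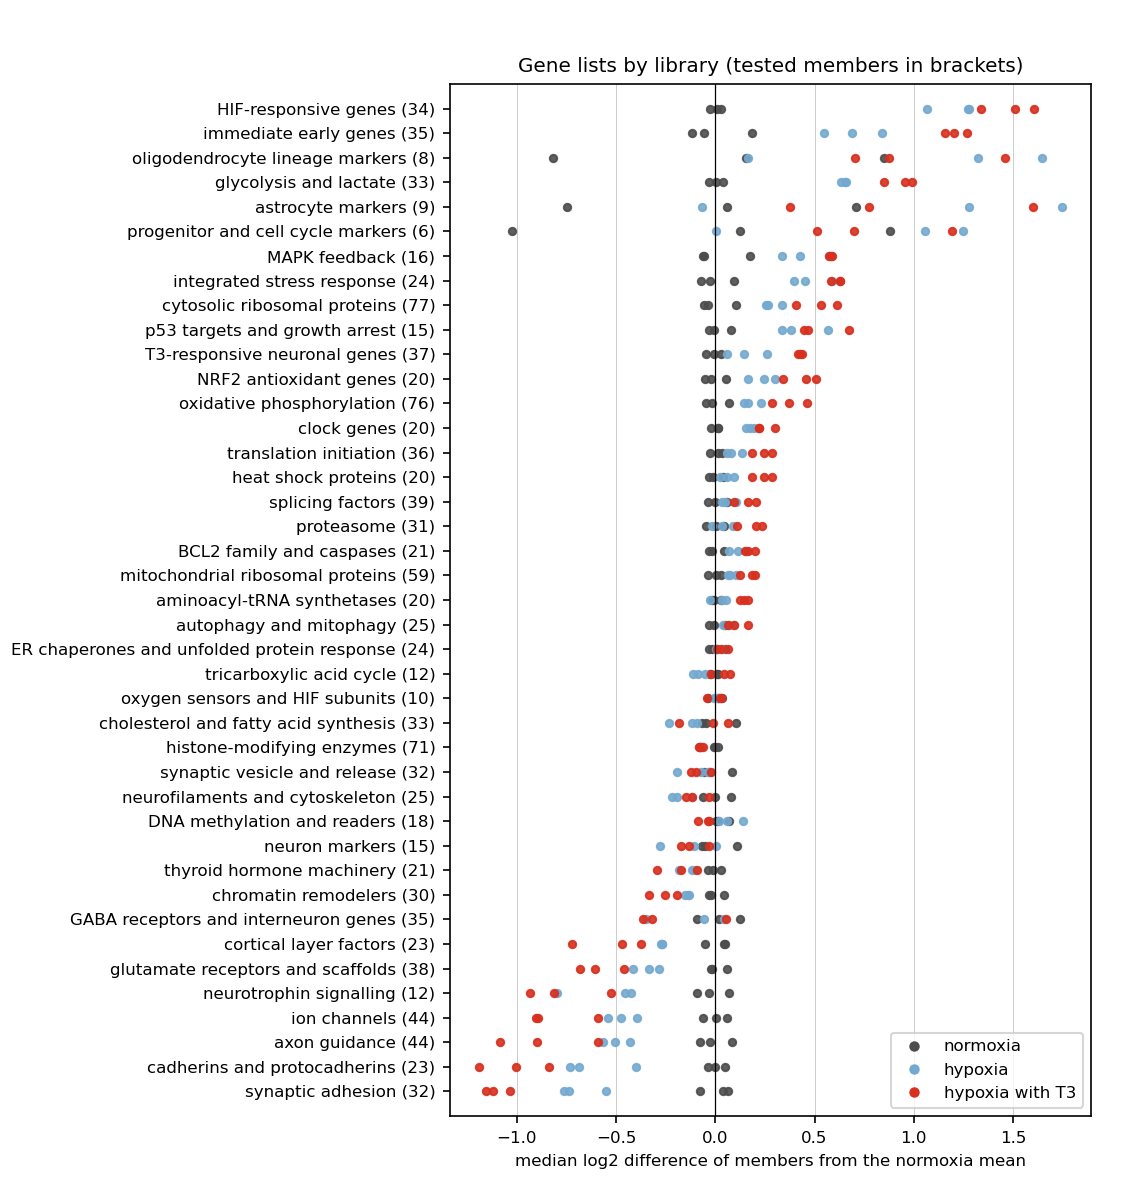
Median log2 difference from the normoxia mean of each gene list with at least 3 tested members, with 1 point per library coloured by group. The HIF-responsive list had the highest median change with T3 (1.49) and synaptic adhesion the lowest (-1.06), and the glial lists spread widely within each group.

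Short genes of ribosomes and respiration made up the other side of the table. Of 77 tested cytosolic ribosomal protein genes 74 were higher and none lower, with a median of 0.53, and 76 of them span under 10 kb, a class whose median was 0.20. All 32 small-subunit genes and 42 of 45 large-subunit genes were higher. Rpl37a read 104, 106 and 113 CPM in normoxia, 136, 136 and 143 CPM in hypoxia and 174, 164 and 153 CPM with T3. The groups were separate, and the change was 0.60 (SE 0.06, adjusted p = 1.5e-05). Rpl35 rose from 139.6, 143 and 157 CPM to 260.1, 235 and 219.6 CPM (0.70), and Rpl3 and Rpl30, at 0.12 and 0.03, did not pass the test, though Rpl3 did without T3 13 (adjusted p = 0.017). Ribosomal protein genes have many processed pseudogenes, among which reads can be divided, so single values are uncertain. Against hypoxia, 19 were higher with T3 and none lower, a count that ranged from 0 to 67 without single libraries.

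Genes of oxidative phosphorylation, the oxygen-using step of respiration, were higher with few exceptions. Of 76 tested members 65 were higher and none lower, with a median of 0.36, in complex I (29 of 36), complexes II to IV (21 of 25) and ATP synthase (15 of 15). Of the 54 members under 10 kb 47 were higher, with a median of 0.38, against 43.4% of all genes under 10 kb. Ndufv3, a complex I subunit, rose from 60.8, 59.3 and 59.9 CPM to 91.3, 83.1 and 83.6 CPM (0.51, adjusted p = 2.3e-05), with 74.7, 76.5 and 74.4 CPM in hypoxia. Cox5b, a subunit of cytochrome oxidase, rose from 119, 114 and 122 CPM to 162, 157 and 161 CPM (0.43), and Ndufa4 by 0.64. Mitochondrial ribosomal protein genes were near the share of their length class. Of the 40 under 10 kb 17 were higher, against 43.4% of all genes of that length. Of all 59 tested members 25 were higher and 2 lower (1 without T3 12), with a median of 0.16, and with equal column sums 41 were higher and 1 lower. In the proteasome 20 of 31 genes were higher and 1 lower, with a median of 0.18, and 14 were higher without T3 12. This list had a median length of 12.4 kb, and its median change lay near the 0.20 of all genes under 10 kb. Of its 12 members under 10 kb 10 were higher, against 43.4% of all genes of that length and 25.5% of all tested genes. Psma6, a core subunit, rose from 57.9, 58.4 and 66.2 CPM to 79.8, 76.8 and 75.5 CPM (0.34).

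Among 36 genes of translation initiation 22 were higher and 3 lower, with a median of 0.25, and by edgeR and DESeq2 5 were lower. The helicase gene Eif4a2 rose from 281, 277 and 289.8 CPM to 502, 483 and 426 CPM (0.73), and Eif4ebp1, which codes for the translation repressor 4E-BP1, rose by 0.73. The long scaffold gene Eif4g3 fell from 485, 467 and 459 CPM to 248, 263 and 292 CPM (-0.81). Of 20 aminoacyl-tRNA synthetases 10 were higher and 1 lower (25.5% and 29.5% of all tested genes), led by the threonine enzyme gene Tars (0.67). Splicing factors were split by family, and also by gene length. Of 21 SR proteins and their kinases 13 were higher and 1 lower, and of 18 hnRNPs and neuronal splicing factors 3 were higher and 7 lower. Over both, 8 members were lower, and 5 with equal column sums or without normoxia 1. Of the 7 members over 100 kb 5 were lower and none higher, and of the 32 under 100 kb 3 were lower and 16 higher. Family and length were not separated here. Srsf6 rose from 80.1, 101 and 105 CPM to 194, 198 and 176 CPM (0.99), with 159, 146 and 159 CPM in hypoxia. Celf2, a neuronal RNA-binding protein gene, fell from 723, 665 and 737 CPM to 198, 247 and 342 CPM (-1.46), with T3 13 the highest of its group. Of 33 genes of cholesterol and fatty acid synthesis 10 were lower and 4 higher, with a median of -0.03. That direction turned with equal column sums, where 5 were lower and 8 higher, and without T3 12 6 were lower. Acaca, which makes the building block of fatty acids, fell by 0.64, and Insig1, a brake on sterol synthesis, rose by 0.56.

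**Figure D5:**
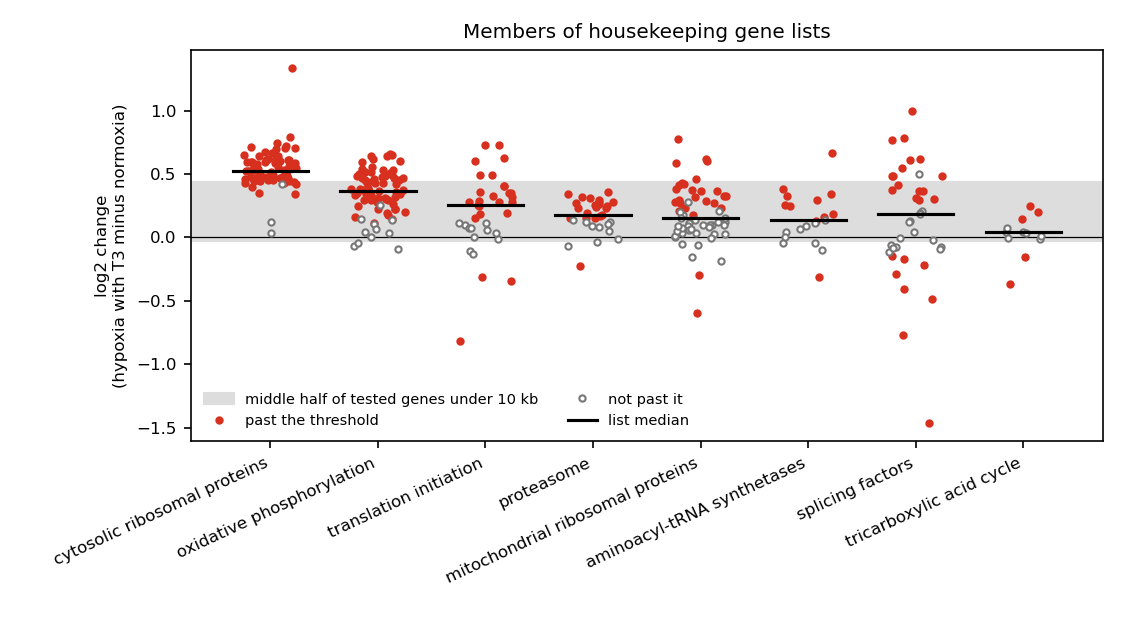
Log2 change of hypoxia with T3 from normoxia of each tested member of 8 lists of ribosomes, respiration, translation, protein turnover and splicing, with filled points past the threshold and a band between the quartiles of tested genes under 10 kb. Cytosolic ribosomal and oxidative phosphorylation genes lay almost wholly above 0, while splicing factors reached from -1.46 in Celf2 to 0.99 in Srsf6.

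Chromatin genes were mixed, and their values need care. Of 71 tested histone-modifying enzymes 19 held values off the read step in the libraries compared. As deposited, 15 of the 71 were higher and 29 lower, with a median of -0.07, but 20 and 19 with equal column sums. Of the 18 over 100 kb 14 were lower, against 1485 of 1986 among all tested genes that long. The 53 under 100 kb had 15 higher and 15 lower, with a median of 0.03. Of the 52 without off-step values 10 were higher and 25 lower. Kdm3a, a HIF-responsive histone H3K9 demethylase gene, rose from 45.2, 50.5 and 45.6 CPM to 161, 163 and 148 CPM, and Jmjd6, another JmjC-domain gene, rose by 1.31. Kdm6a, an H3K27 demethylase gene on the X chromosome, fell from 24.4, 20.5 and 20.8 CPM to 8.56, 10.8 and 13.4 CPM (-0.96). Hdac4, a neuronal class II deacetylase, stood as deposited at 47, 56.3 and 56.1 CPM in normoxia and 11.5, 10.4 and 11.8 CPM with T3 (-2.15), with all 3 T3 values off the step. Kmt2a, an H3K4 methyltransferase gene, read as deposited 102, 5.57 and 109 CPM in the hypoxia libraries, of which hypoxia 8 stands far from the others, and 145, 144 and 157 CPM with T3. All of these Kmt2a values were off the step. Of 30 chromatin remodelers 18 were lower and 2 higher (29.5% and 25.5% of all tested genes), with a median of -0.22. Of the 11 over 100 kb 9 were lower, and of the 19 under 100 kb 9 were lower and 2 higher. Arid1b, a subunit of BAF remodelling complexes, fell from 184, 175 and 178 CPM to 54.4, 63.3 and 78.3 CPM (-1.46, adjusted p = 3.2e-06), and Smarca1 fell by 1.30. Of 18 genes of DNA methylation and its readers 7 were lower and 4 higher, and that direction turned with equal column sums, at 5 and 6, and 2 were higher without T3 11. Tet1, which oxidises methylated cytosine, rose from 41.8, 34.5 and 36.4 CPM to 63.5, 65.6 and 66.8 CPM (0.79), and the methyltransferase gene Dnmt3a fell by 0.51.

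Aldoc, an astrocyte aldolase that was the astrocyte marker called higher, read 0.916, 6.65 and 9.18 CPM in normoxia, 7.97, 24.2 and 35.9 CPM in hypoxia and 25.5, 33.6 and 16.5 CPM with T3 (2.25, adjusted p = 0.0087). Slc1a3, the astrocyte glutamate transporter, read 5.0, 22.1 and 45.1 CPM in normoxia and 38.6, 73.7 and 34 CPM with T3, and its difference of 1.34 was not called (adjusted p = 0.12) except without normoxia 3 (0.026) and with library weights (0.027). Nes, a progenitor marker, read 4.5, 16.5 and 30.9 CPM in normoxia and 36.8, 63.8 and 30.8 CPM with T3 (1.56, adjusted p = 0.033), and its call was lost without normoxia 1 (0.12), normoxia 2 (0.052), T3 11 (0.058) or T3 12 (0.12). For all 3 markers normoxia 1 was the lowest and normoxia 3 the highest of the normoxia libraries.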

How the data were processed

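RNA of mouse cortical neurons was sequenced in 9 libraries, 3 from each of the normoxia, hypoxia and T3 groups, and samples were grouped by the treatment in the labels. Reads were processed with Bowtie2 2.1.0, RSEM 1.2.15 and edgeR on mm10, per the submitters' processing notes. The deposited values are a signal that the authors made by dividing read counts by TMM-scaled library sizes (TMM-normalised CPM), in a table of 24054 rows. In each library 99.89% to 100.00% of values were within 0.01 of a whole number of reads, which gave 17182338 to 33937842 reads per library, a depth that bears on counting error only. The table held 27 symbols turned to dates and 2 repeated symbols, and 1 unnamed column with 4 numbers was not used.

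Values were tested as log2(CPM + 1) with limma 3.58.1 (R 4.3.3, empirical Bayes with a variance trend) over all 9 libraries, for genes above 1 CPM in at least 3 libraries, with Benjamini-Hochberg adjustment over 12923 genes and a threshold of 0.05. The script was tested on simulated data. Alternatives were pseudocounts of 0.1 and 5, other filters, scalings and variance priors, library weights, only the 6 compared libraries, edgeR 4.0.16 and DESeq2 1.42.0 on the recovered reads, rows off the read step left out, and each library left out in turn.

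The genes named were the 12 largest changes in each direction (with a higher-group mean of 5 CPM or more, groups that do not overlap, all values on the read step, predicted and unnamed genes left out), the 4 members per list ranking first by adjusted p, and set checks of the labels. Other members were named after their values were seen. The members, lists and tests were chosen with earlier results of these data known. Some members of these lists are not reported here.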

Additional observations from a re-analysis of the deposited data

How the results depend on the processing

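The count of 7117 changed genes stayed between 5957 and 7120 without each library in turn (higher 2630 to 3323, lower 3275 to 3807) and between 6241, with a mean of at least 5 CPM, and 8165, with library weights, under the other settings. edgeR on the recovered reads called 7107 genes, DESeq2 7016 and limma 7097 when off-step rows were left out. With equal column sums 61.3% of the 7383 called genes were higher, against 46.4%. The count of genes changed at least 2-fold, 788, was 666 to 941 without single libraries, 390 with a pseudocount of 5, 1130 with one of 0.1, 1136 by edgeR and 1146 by DESeq2. By length, a pseudocount of 5 moved the median under 10 kb to 0.14 and over 300 kb to -0.78. Equal column sums moved the medians of the 3 shorter classes to 0.30, 0.21 and -0.02, and quantile normalization moved those of 10 to 30 kb and 30 to 100 kb to 0.15 and -0.08. The cause of these shifts was not tested. Of 255 genes checked one by one 234 were called, and 223 of these were called in the same direction under every setting. Rn45s, at -1.36, was at 0 under quantile normalization, and Bnip3l, Camk2a, Mapt, Rpl3, Snap25 and Thra were called higher with equal column sums. Against hypoxia, where leaving libraries out was chosen after seeing the data, the counts ranged from 31 to 1817 changed, 19 to 713 higher and 12 to 1104 lower genes. No paired analysis was possible because the columns of hypoxia with T3 are numbered 11 to 13 and share no number with those of normoxia.

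With 3 libraries a group the error rests on 6 residual degrees of freedom shared by all 9 libraries. At 1 read worth 0.0302 to 0.0565 CPM, genes near the filter rest on few reads. Genes below the filter were not tested, which does not show that they are absent. Without normoxic neurons that received T3, the hormone and the low oxygen cannot be told apart in this comparison.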

Other observations

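Several gene families, grouped by name after their values had been seen, are added here as values. They were picked from a larger set, whose other families included some that moved in both directions. Zinc finger genes named Zfp had 81 of 334 members higher and 82 lower, and RAB GTPases had 9 of 59 higher and 16 lower. Of the 4 gamma, delta and epsilon tubulin genes 1 was higher and 1 lower. Tubulins build the microtubules that run through axons and dendrites, and 9 of the 10 tested alpha and beta tubulin genes were lower with T3 than in normoxia, against 29.5% of all tested genes. Of these 10 genes 8 span under 10 kb, the length class in which 43.4% of genes were higher. Tuba1a, the main alpha tubulin of young neurons and among the most abundant transcripts, read 11286, 10221 and 10701 CPM in normoxia, 6142, 7437 and 6397 CPM in hypoxia and 4509, 5138 and 5755 CPM with T3 (-1.07, adjusted p = 1.1e-05 by limma, or 0.059 with quantile normalization). The groups did not overlap, and the same was seen in the beta tubulin gene Tubb5, with 2905, 2550.5 and 2543 CPM in normoxia, 1225, 1666 and 1365 CPM in hypoxia and 747, 961 and 1096 CPM with T3 (-1.53). The higher gene was the low Tubb6 (0.40, adjusted p = 0.02), which was not called without normoxia 1, T3 11 or T3 12. The count of lower tubulins was 7 to 9 over all other settings and libraries left out. Kinesins, the motors that walk along microtubules, had 18 of 34 members lower and 4 higher, and 13 and 5 with equal column sums. The higher count was 1 without normoxia 1 or T3 12, and the lower count 15 and 13. Kif5c, a neuronal motor of axonal transport, fell from 1422, 1366 and 1416 CPM to 1029, 995 and 1018 CPM (-0.47).

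Host genes of small nucleolar RNAs, whose introns carry the guides of ribosomal RNA modification, had 8 of 10 members higher and none lower. Their median was 0.885, and 8 or 9 were higher without each library in turn. Of these 10 genes 9 span under 10 kb, a length class in which 43.4% of genes were higher, against 25.5% of all tested genes. Snhg1 read 4.29, 6.01 and 7.11 CPM in normoxia, 13.9, 12.1 and 14.4 CPM in hypoxia and 21.9, 21.9 and 18.2 CPM with T3 (1.69, adjusted p = 8.7e-06), with no overlap between groups. Snhg12 stood at 9.53, 10.2 and 10.1 CPM in normoxia, 18.7, 17.6 and 21.8 CPM in hypoxia and 35.4, 30.7 and 26.9 CPM with T3 (1.54). Kruppel-like factors, zinc finger proteins that bind GC-rich DNA, went in both directions, with 7 of 14 lower and 3 higher. Among all tested genes 29.5% were lower and 25.5% higher. Klf12 fell from 39.1, 35.1 and 38.5 CPM to 8.7, 8.82 and 14.7 CPM (-1.75) and Klf7, a factor of axon growth, from 75.6, 61.8 and 64.6 CPM to 17.7, 20.1 and 27 CPM (-1.61). Klf9, Klf4 and Klf10 were higher, the last of them by 0.94.

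Among the values that were not whole numbers of reads, 7 pairs were equal between different genes of the same library. Kmt2a and Kmt2d both read 145.0986 CPM in T3 11, 143.8961 CPM in T3 12, 101.8394 CPM in hypoxia 7 and 109.0238 CPM in hypoxia 9. Kdm5b, Kmt2a and Kmt2c all read 5.5704 CPM in hypoxia 8. How these values came about is not given in the sources used here. Of all 142 such values 6 lay in normoxia, 65 in hypoxia and 71 with T3, and 18 of the 31 tested genes that hold one in the compared libraries were called.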
